A study of Mus musculus with 9 samples.

Results

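The 9 genes described here encode the enzymes that make serine from a glycolytic intermediate and the main enzymes that pass its carbon units through folate, in the cytosol and in mitochondria. They were taken by name: Phgdh, Psat1 and Psph for serine synthesis, Shmt1 and Mthfd1 for the cytosolic arm, and Shmt2, Mthfd2, Mthfd1l and Aldh1l2 for the mitochondrial arm. All 9 were found among the 55487 genes of the deposited tables, and 7 of them had enough counts to be tested, among 13453 tested genes. RNA was sequenced from J774A.1, a mouse macrophage line, carrying a control guide RNA (safe sgRNA) or 1 of 2 guide RNAs against Slc12a9, sgRNA 11 and sgRNA 15, with 3 libraries each. Every group was grown with 10% serum and glutamine and then kept without serum and glutamine for 6 h before lysis, so all values refer to starved cells. The labels call the safe cells WT and the others SLC12A9 knockdown, while the design text speaks of knockout cells, and whether each line was a clone or a pool is not given in the sources used here. The study asked how expression differs between Slc12a9-deficient and control cells in this medium, since glutamine metabolism releases ammonia.

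Phgdh, Psat1 and Psph act in sequence to turn 3-phosphoglycerate into serine. Serine hydroxymethyltransferase then moves a carbon from serine to tetrahydrofolate and leaves glycine, and proliferating cells usually run this step in mitochondria, export the carbon as formate and use it in the cytosol for purines and thymidylate. Transcription factors of the ATF4 group are known to raise serine synthesis and mitochondrial folate genes when amino acids are short.

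Depth was similar in all libraries, with 16405296 to 25613961 counts in genes, which were 79.3 to 80.7% of the tallied reads. Safe replicate 1 differed most from its replicates, with a chi-square per degree of freedom of up to 6.83 against 1.76 to 4.05 between libraries of the guide groups. Markers of macrophages were all detected (6 of 6), with summed levels of 4489 to 4703 CPM in safe libraries, 8228 to 8496 with sgRNA 11 and 6583 to 6663 with sgRNA 15. Lyz2 alone averaged 1727, 4513 and 3567 CPM in these groups, and the markers did not all move alike. Cd68 fell with sgRNA 11 (log2 -0.17, edgeR adjusted p = 4.02e-09) and rose with sgRNA 15 (0.39, adjusted p = 3.22e-25). Csf1r, with 15.1% of its exons shared with a gene on the other strand, rose with sgRNA 11 (0.57, adjusted p = 3.44e-40). It was not called with sgRNA 15 (-0.02, adjusted p = 0.488). The other markers were called higher with either guide. CPM is the count of a gene relative to the total of its library, scaled by TMM. Markers of T cells, B cells, epithelial cells, fibroblasts and endothelial cells each summed to at most 3.71 CPM in any library. Slc12a9, the targeted gene, stood at 44.8, 53.5 and 47.0 CPM in safe libraries, 62.6, 66.3 and 67.0 with sgRNA 11 and 48.2, 50.01 and 51.7 with sgRNA 15. Its RNA was higher with sgRNA 11 (log2 0.43, SE 0.05, edgeR adjusted p = 6.45e-13) and was not called with sgRNA 15 (log2 0.05, SE 0.05, adjusted p = 0.426), so RNA level does not check the labels. A Cas9 cut need not lower the RNA of its gene, and "with sgRNA 11" and "with sgRNA 15" below mean the libraries labelled so. In bulk RNA a lower share of cells expressing a gene and less RNA per cell cannot be told apart.

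With each guide the cytosolic and the mitochondrial arm moved in opposite directions. Of the 7 tested enzymes 4 rose and 2 fell with sgRNA 11, where 65.8% of all tested genes were called (33.3% higher, 32.4% lower), and 4 rose and 2 fell with sgRNA 15, where 62.9% were called (32.2% higher, 30.7% lower). The risen genes were Psat1, Shmt2, Mthfd2 and Mthfd1l with either guide, the fallen ones Shmt1 and Mthfd1, and Psph was not called. Over all tested genes 26.0% were called higher with both guides and 25.7% lower with both. The comparisons with the guides share the same 3 safe libraries, so they are not independent of each other. The median log2 change of the 7 enzymes was 0.34 with sgRNA 11 and 0.33 with sgRNA 15, against 0.01 over all tested genes for either guide. Their median absolute change was 0.60 and 0.61, against 0.32 and 0.29 over all tested genes.

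**Figure D1:**
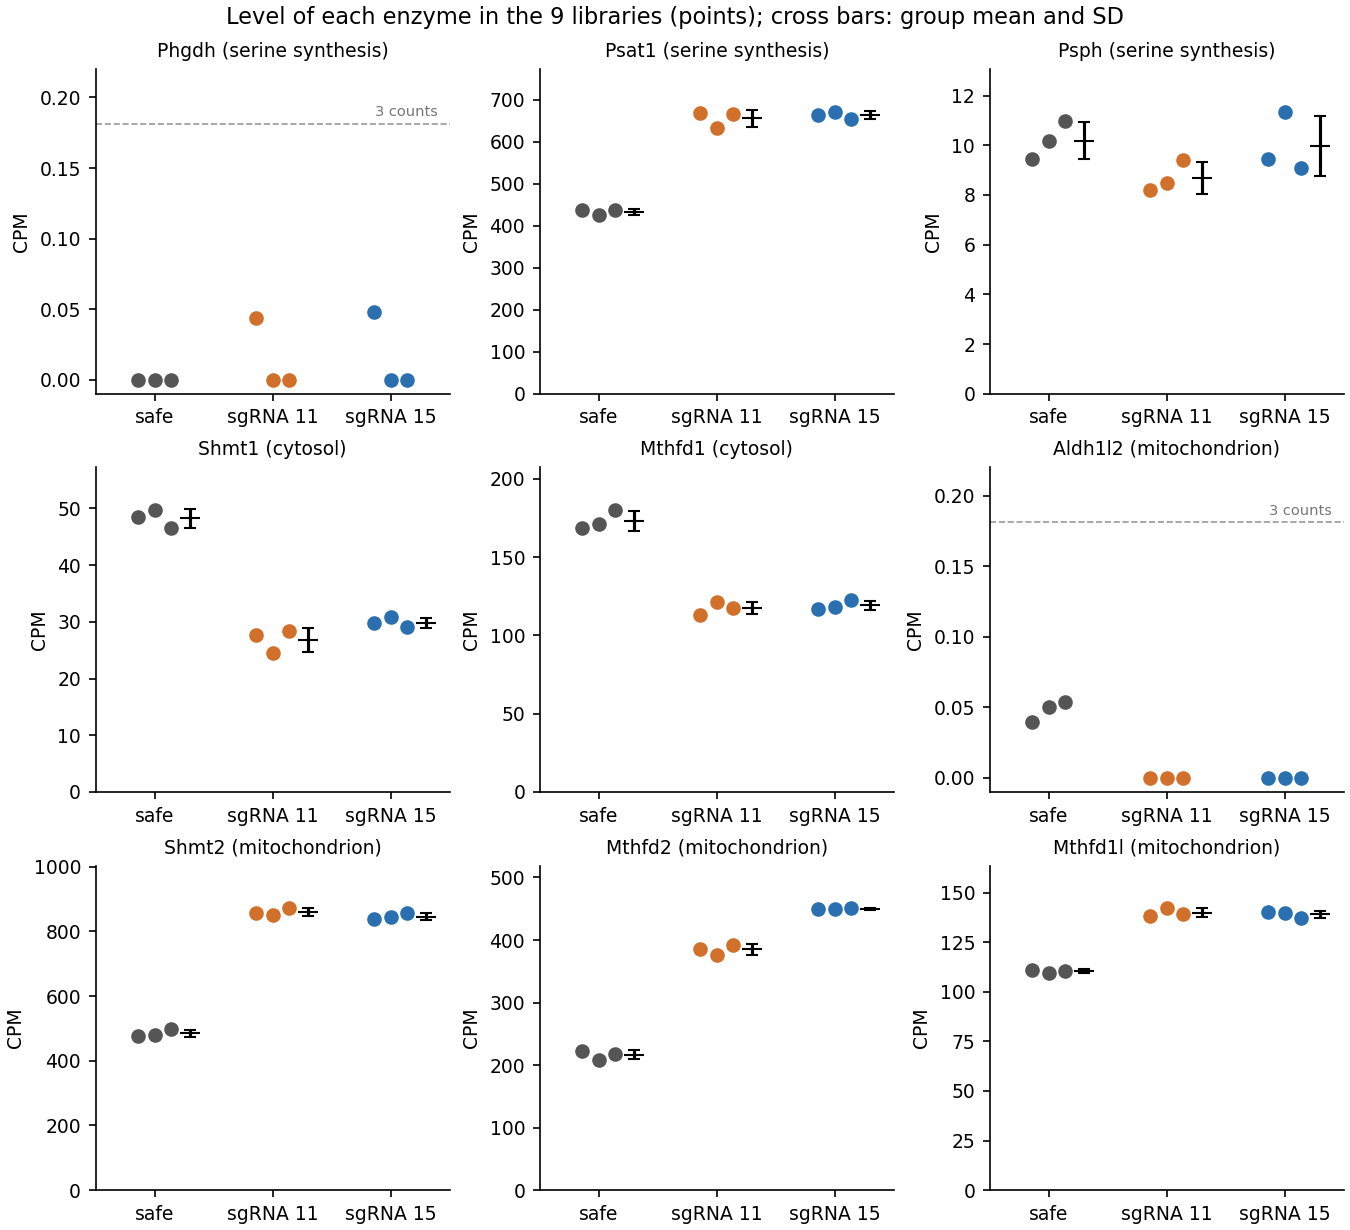
Level of each of the 9 enzymes in CPM (vertical axes, linear) for the 3 libraries of each group (points), with the group mean and SD as cross bars for the 7 tested enzymes. The dashed line for Phgdh and Aldh1l2 is the highest level to which 3 counts correspond in any library (0.182 CPM), and all points of both genes lie under it.

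Phgdh, the first and committed enzyme of serine synthesis (ENSMUSG00000053398, mm10 chromosome 3, 98313170 to 98339990, minus strand), was practically without reads. It had 0, 0 and 0 counts in the safe libraries, 1, 0 and 0 with sgRNA 11 and 1, 0 and 0 with sgRNA 15, which is 2 counts in all. Every library was thus below 3 counts, and a count of 0 allows up to 0.120 to 0.182 CPM depending on the library, so no fold is given. Counting error alone is covered by these limits. The gene has close copies that can take its reads or make them ambiguous: 18 genes matched its transcripts at 90.6 to 98.7% identity over at least 50% of the shorter transcript. These copies together held 19 counts over all 9 libraries. Of the 50-base windows of its longest transcript 36.9% occurred in no other annotated transcript, and of the 100-base windows 62.7%. Its upstream region is shown because Phgdh is the near-silent member of a pathway whose next enzyme was abundant. The stretch is chr3:98339991-98340219 of GRCm38.p6 (the assembly of mm10), minus strand, from RefSeq's promoter table without the bases that the annotation places in an exon, read 5′ to 3′, with the CG dinucleotides in capitals.
Phgdh: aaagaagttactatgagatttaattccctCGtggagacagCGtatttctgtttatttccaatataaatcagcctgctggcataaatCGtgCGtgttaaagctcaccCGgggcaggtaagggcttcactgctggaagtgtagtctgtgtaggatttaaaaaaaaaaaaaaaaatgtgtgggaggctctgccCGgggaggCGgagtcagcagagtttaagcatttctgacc
It holds 7 CG in 229 bases. Of 3 motifs searched on both strands in the 250 bases before the start site, Phgdh held TGACNNNGC, the core of the antioxidant response element, at position -53 from the start on the minus strand relative to the gene. That motif occurred in 10.2% of 32851 mouse promoters of the same length.

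Psat1, the aminotransferase of the second step (ENSMUSG00000024640, chromosome 19, 15904678 to 15947337, minus strand), was among the most abundant members and rose with either guide. Its level was 437, 425 and 438 CPM in safe libraries, 668, 633 and 666 with sgRNA 11 and 664, 672 and 653 with sgRNA 15. All 6 guide libraries lay above all 3 safe ones, and the guide groups overlapped each other. Ranges of libraries that do not overlap were common too: 67.7% of tested genes had them between safe and sgRNA 11, 65.8% between safe and sgRNA 15 and 42.8% between the guides. The change of Psat1 was 1.51-fold with sgRNA 11 (log2 0.60, SE 0.02, edgeR adjusted p = 2.74e-38) and 1.53-fold with sgRNA 15 (log2 0.61, SE 0.02, adjusted p = 6.63e-39). Psat1 had 1 close copy at 91.0% identity, which held 37 counts against 109253 for Psat1 itself.

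Psph, the phosphatase that releases serine in the last step (ENSMUSG00000029446, chromosome 5, 129765558 to 129787449, minus strand), was the weakest of the tested members. It stood at 9.46, 10.2 and 11.0 CPM in safe libraries, 8.19, 8.48 and 9.42 with sgRNA 11 and 9.46, 11.4 and 9.08 with sgRNA 15. The safe and sgRNA 11 ranges only just missed each other, and the sgRNA 15 libraries overlapped both other groups. Neither change was called, at log2 -0.22 (SE 0.11, edgeR adjusted p = 0.0588) and -0.01 (SE 0.10, adjusted p = 0.915). Without safe replicate 1 the value with sgRNA 11 was -0.28 and was called (adjusted p = 0.0381), and likewise without sgRNA 11 replicate 3 (-0.29, adjusted p = 0.0282) and without sgRNA 15 replicate 3 (-0.23, adjusted p = 0.0468). Psph shares 10.4% of its exon length with Cct6a on the other strand, and the strand setting of the counting is not given in the sources used here, so its level is uncertain. Within serine synthesis, 1 of the 2 tested enzymes rose, 0 fell and 1 was not called with either guide.

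Shmt1, the cytosolic serine hydroxymethyltransferase (ENSMUSG00000020534, chromosome 11, 60788104 to 60811718, minus strand), fell with either guide. It stood at 48.4, 49.8 and 46.5 CPM in safe libraries, 27.7, 24.4 and 28.4 with sgRNA 11 and 29.7, 30.8 and 29.05 with sgRNA 15. All guide libraries lay below all safe ones, and the sgRNA 11 libraries lay below those of sgRNA 15. Its level with sgRNA 11 was 0.558 times that in safe cells (log2 -0.84, SE 0.06, edgeR adjusted p = 8.31e-24), and with sgRNA 15 it was 0.620 times (log2 -0.69, SE 0.06, adjusted p = 3.03e-19). Among all tested genes 4.50% had a lower log2 change than Shmt1 for the mean of the guides.

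Shmt2, its mitochondrial counterpart (ENSMUSG00000025403, chromosome 10, 127517123 to 127522444, minus strand), moved the other way. It stood at 477, 479.9 and 498 CPM in safe libraries, 856, 849 and 873 with sgRNA 11 and 837, 845 and 856 with sgRNA 15. The guide libraries lay far above the safe ones and overlapped each other. The rise was 1.77-fold with sgRNA 11 (log2 0.83, SE 0.02, edgeR adjusted p = 1.62e-49) and 1.74-fold with sgRNA 15 (log2 0.80, SE 0.02, adjusted p = 2.06e-48). For the mean of the guides 92.2% of tested genes had a lower log2 change. The upstream stretches of Shmt1 and Shmt2 are shown because these genes encode the same reaction in 2 compartments and moved in opposite directions. Both are from RefSeq on GRCm38.p6, 5′ to 3′, with CG in capitals: Shmt1 at chr11:60811266-60811466 and Shmt2 at chr10:127522445-127522694, both on the minus strand.
Shmt1: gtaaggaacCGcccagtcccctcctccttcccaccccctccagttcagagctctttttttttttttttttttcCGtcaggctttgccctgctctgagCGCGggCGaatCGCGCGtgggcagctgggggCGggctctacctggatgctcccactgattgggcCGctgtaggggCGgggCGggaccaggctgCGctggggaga
Shmt2: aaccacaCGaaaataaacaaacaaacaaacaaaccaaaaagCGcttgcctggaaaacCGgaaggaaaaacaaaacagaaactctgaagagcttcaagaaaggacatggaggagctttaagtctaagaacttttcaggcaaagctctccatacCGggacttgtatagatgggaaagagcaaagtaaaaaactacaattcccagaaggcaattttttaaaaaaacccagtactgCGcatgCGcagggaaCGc
The Shmt1 stretch holds 13 CG in 201 bases and the Shmt2 stretch 7 in 250. In the full 250 bases before the start the number of CG was 13 for Shmt1, 15 for Mthfd1, 7 each for Shmt2, Mthfd2, Mthfd1l and Phgdh, 23 for Psph, and 24 and 16 for the annotated starts of Psat1, against a median of 6 over all 32851 promoters. The CG count was chosen after the values were seen, and it is a description of the sequence only. Promoters were matched for 8 of the 9 members. For Mthfd1 and Mthfd1l the bases just after the RefSeq start were in no annotated transcript of the gene, so their starts are less certain. None of the 8 held TGATGNAA, the core of the C/EBP-ATF response element bound by ATF4 (3.45% of all promoters did), and none held the E-box CACGTG (6.02% of all promoters). A missing match says only that these letters are not in this window.

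Mthfd1, the cytosolic enzyme that carries 3 folate activities including the capture of formate (ENSMUSG00000021048, chromosome 12, 76255298 to 76319803, plus strand), fell. It stood at 168, 171 and 180.3 CPM in safe libraries, 113, 121 and 118 with sgRNA 11 and 117, 118 and 123 with sgRNA 15. No guide library reached the lowest safe one. The change was log2 -0.56 with sgRNA 11 (SE 0.03, edgeR adjusted p = 3.82e-28) and -0.54 with sgRNA 15 (SE 0.03, adjusted p = 7.69e-27). Mthfd1 and Shmt1 make up the cytosolic arm, so 2 of its 2 genes fell with either guide.

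Mthfd2, the mitochondrial dehydrogenase and cyclohydrolase that is high in proliferating and activated cells (ENSMUSG00000005667, chromosome 6, 83305691 to 83325908, minus strand), rose most among the members for the mean of the guides. It stood at 223, 209 and 218 CPM in safe libraries, 386, 376 and 392 with sgRNA 11 and 449, 449 and 451 with sgRNA 15. The 3 groups did not overlap. The rise was 1.78-fold with sgRNA 11 (log2 0.83, SE 0.03, edgeR adjusted p = 1.22e-45) and 2.08-fold with sgRNA 15 (log2 1.05, SE 0.03, adjusted p = 3.61e-53). For the mean of the guides 94.1% of tested genes had a lower log2 change.

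Mthfd1l, which releases formate in mitochondria (ENSMUSG00000040675, chromosome 10, 3973118 to 4167081, plus strand), rose less. It stood at 111, 109.6 and 111 CPM in safe libraries, 138, 142 and 139 with sgRNA 11 and 140.4, 139.7 and 137 with sgRNA 15. The guide groups overlapped each other and lay above the safe group. The rise was 1.27-fold with sgRNA 11 (log2 0.34, SE 0.03, edgeR adjusted p = 2.16e-16) and 1.26-fold with sgRNA 15 (log2 0.33, SE 0.03, adjusted p = 7.52e-16). This is close to the median absolute change of all tested genes, 0.32 and 0.29.

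Aldh1l2, which oxidises formyl-folate to carbon dioxide in mitochondria (ENSMUSG00000020256, chromosome 10, 83487450 to 83534140, minus strand), had 1, 1 and 1 counts in the safe libraries and 0 in each of the 6 guide libraries. All 9 values are under 3 counts, so no fold and no test is given. It shares 14.1% of its exon length with D10Wsu102e on the other strand and is uncertain for that reason too. In the mitochondrial arm 3 of 4 genes were tested, and 3 rose with either guide.

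**Figure D2:**
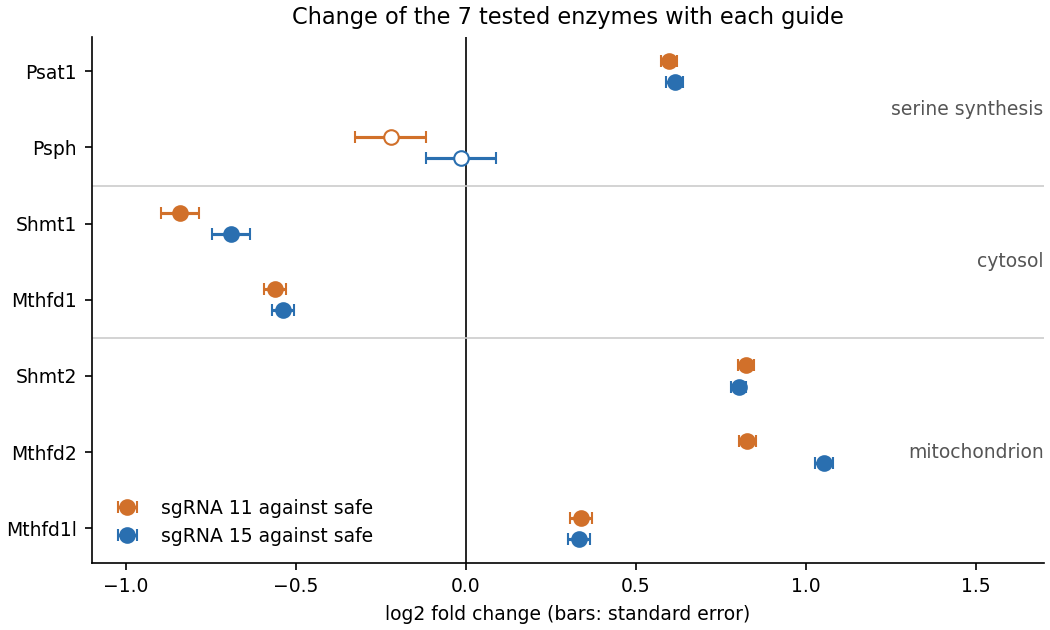
Log2 fold change against safe (horizontal axis) of the 7 tested enzymes with sgRNA 11 (orange) and sgRNA 15 (blue), with standard errors as bars. Filled points have an edgeR adjusted p under 0.05, and the open points are those of Psph; Shmt1 and Mthfd1 lie left of 0 and the 3 mitochondrial enzymes right of it.

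The balance of the arms was followed in each library as the summed CPM of the mitochondrial genes over that of the cytosolic genes. The cytosolic sum (mean ± SD of 3 libraries) was 221 ± 5.03 CPM in safe cells, 144 ± 2.74 with sgRNA 11, and 149 ± 2.45 with sgRNA 15. The mitochondrial sum was 812 ± 14.4, 1384 ± 18.6 and 1435 ± 8.93 CPM in the same order. Their ratio was 3.74, 3.62 and 3.65 in safe libraries, 9.78, 9.40 and 9.61 with sgRNA 11 and 9.72, 9.61 and 9.52 with sgRNA 15. No guide library came near the safe ratios, the guide groups overlapped, and the ratio was 2.62 times the safe one with either guide (log2 1.39 each, no test of its own). Each pair of counterparts showed a higher ratio with the guides. Shmt2 over Shmt1 went from 10.1 ± 0.56 in safe cells to 32.1 ± 2.28 with sgRNA 11 and 28.3 ± 1.04 with sgRNA 15. Mthfd2 over Mthfd1 went from 1.25 ± 0.06 to 3.28 ± 0.16 and 3.77 ± 0.08. Mthfd1l over Mthfd1 went from 0.638 ± 0.02 to 1.19 ± 0.02 and 1.17 ± 0.04. In CPM, which is not corrected for gene length, this pair crossed from below 1 to above it.

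**Figure D3:**
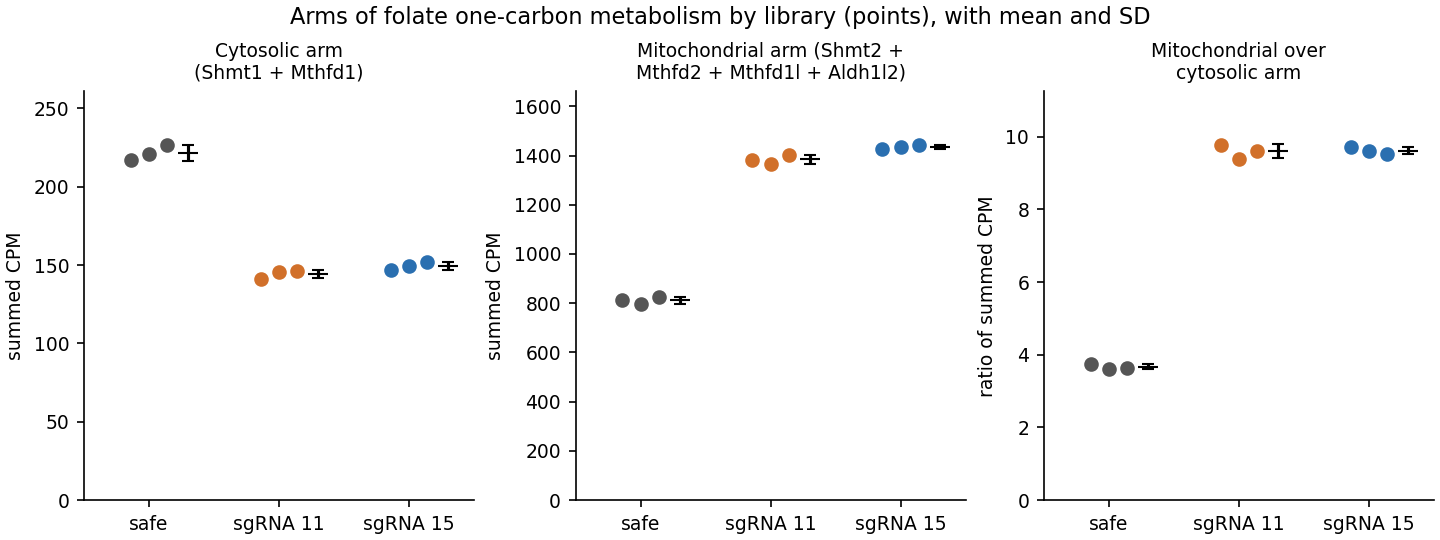
Summed CPM of the cytosolic genes (left), summed CPM of the mitochondrial genes (middle) and their ratio (right) in each library (points), with group mean and SD. The safe libraries sit at ratios of 3.62 to 3.74 and the 6 guide libraries at 9.40 to 9.78.

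Between genes, levels were compared per kilobase of merged exons. In safe cells Shmt2 was highest at 156 CPM per kilobase, followed by Psat1 at 102, Mthfd2 at 62.1, Mthfd1 at 39.0, Mthfd1l at 24.9, Shmt1 at 12.4 and Psph at 2.35, with Aldh1l2 and Phgdh at the bottom. With sgRNA 11 the order of the leading 3 stayed, at 276, 154 and 110.4 CPM per kilobase for Shmt2, Psat1 and Mthfd2, and with sgRNA 15 they stood at 272, 156 and 129. Mthfd1l and Mthfd1 traded places: Mthfd1l stood at 31.5 and 31.4 CPM per kilobase with sgRNA 11 and sgRNA 15, and Mthfd1 at 26.4 and 26.9. Per kilobase of the longest transcript their means lay closer, at 37.9 for Mthfd1l against 36.2 for Mthfd1 with sgRNA 11. With sgRNA 15 they were 37.7 against 36.8, so the size of this gap depends on the length used. By merged exons, library ranges of neighbours in this order did not overlap, except for Phgdh and Aldh1l2 in both guide groups. In safe cells Aldh1l2 had 1 count and Phgdh 0 in each library, all under 3 counts, so their order there is not resolved. The ratio of the arms computed per kilobase was 4.73 ± 0.08 in safe cells, 12.5 ± 0.23 with sgRNA 11 and 12.5 ± 0.11 with sgRNA 15.

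The guides were then compared with each other. In this comparison 33.5% of all tested genes were called, and 2 of the 7 enzymes were higher with sgRNA 15, 0 were lower and 5 were not called. Mthfd2 was higher with sgRNA 15 by log2 0.22 (SE 0.03, edgeR adjusted p = 2.25e-12). Shmt1 was higher with sgRNA 15 by log2 0.15 (SE 0.06, adjusted p = 0.045), a call at the edge of the threshold. Without sgRNA 11 replicate 2 that difference was 0.09 (adjusted p = 0.335), and without sgRNA 15 replicate 2 it was 0.12 (adjusted p = 0.204). The call was also lost without safe replicate 1 (adjusted p = 0.0621), safe replicate 2 (0.0555), sgRNA 11 replicate 1 (0.0597) or sgRNA 15 replicate 1 (0.0976). The differences of the uncalled members were 0.02 for Psat1 (SE 0.02), 0.21 for Psph (SE 0.11), 0.02 for Mthfd1 (SE 0.03), -0.02 for Shmt2 (SE 0.02) and -0.01 for Mthfd1l (SE 0.03). Without sgRNA 15 replicate 2 the difference of Psph was 0.086.

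The genes around the members were grouped by role, with 44 genes of neighbouring steps of which 37 were tested. For the mean of both guides, where 68.0% of all tested genes were called (34.7% higher, 33.3% lower), 16 of these 37 rose and 15 fell, which leaves 6 without a call. Their median log2 change was 0.04. Changes in this paragraph and the following ones are log2 changes for that mean, and levels are CPM ± SD (n = 3).

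Of the folate transport and retention genes 5 of 7 were tested, 1 rose and 3 fell. Slc25a32, the mitochondrial folate carrier, stood at 52.0 ± 2.66 CPM in safe cells, 32.8 ± 1.18 with sgRNA 11 and 40.1 ± 2.17 with sgRNA 15 (log2 -0.52, edgeR adjusted p = 4.23e-18). Fpgs, which adds glutamates that keep folate in the cell, fell from 42.2 ± 1.95 to 25.3 ± 1.32 and 26.2 ± 1.10 CPM (log2 -0.71, adjusted p = 1.21e-22). Ggh, which removes those glutamates, rose from 11.8 ± 1.21 to 18.6 ± 1.54 and 21.5 ± 2.30 CPM (log2 0.74, adjusted p = 1.34e-14). Of the other folate enzymes 6 of 7 were tested, 3 rose and 2 fell. The uncalled one was Mthfd2l, a mitochondrial relative of Mthfd2 that is not among the members. It stood at 6.51 ± 0.21, 6.75 ± 0.71 and 5.86 ± 0.41 CPM (log2 -0.05, edgeR adjusted p = 0.723), so it did not share the rise of the mitochondrial members. Aldh1l1, the cytosolic relative of Aldh1l2, stood at 17.3 ± 1.23 CPM in safe cells and changed by 0.32 (adjusted p = 2.38e-05), and it shares 11.1% of its exons with annotation on the other strand.

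All 3 users of formyl-folate were tested, and 3 fell. Gart, a purine synthesis enzyme, went from 195 ± 1.28 to 122 ± 0.80 and 117 ± 3.87 CPM (log2 -0.71, edgeR adjusted p = 3.31e-41), with 19.7% of its exons shared with a gene on the other strand. Atic, another purine synthesis enzyme, went from 439.7 ± 2.53 to 301 ± 3.09 and 266 ± 4.16 CPM (log2 -0.63, adjusted p = 3.13e-44). Mtfmt, which formylates the initiator tRNA of mitochondria, fell by 0.55 on the log2 scale (adjusted p = 1.49e-17). In the glycine cleavage system 3 of 4 genes were tested, 1 rose and 2 fell. Gcsh, its lipoyl carrier, fell by 0.62. Dld, a subunit shared with other dehydrogenases, fell by 0.28 with sgRNA 11 (edgeR adjusted p = 1.56e-13) and was not called with sgRNA 15 (-0.04, adjusted p = 0.215), and the guides differed by 0.24 (adjusted p = 4.2e-10). Amt, its folate-dependent subunit, rose by 0.99 at a level of 0.939 ± 0.23 CPM in safe cells. Gldc, the decarboxylase of the system, was too low to be tested.

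Serine and glycine transporters were all tested (8 of 8), and 6 rose and 1 fell. Slc1a4, a carrier of serine and other neutral amino acids, had 8.78, 9.80 and 9.12 CPM in safe libraries against 57.6 to 61.8 with sgRNA 11 and 57.1 to 58.03 with sgRNA 15. Slc6a9, a glycine carrier, rose from 6.46 ± 0.32 to 30.3 ± 2.60 and 24.3 ± 1.80 CPM (log2 2.08, edgeR adjusted p = 8.81e-40), with 30.3% of its exons shared with genes on the other strand. Slc38a2, a broad carrier of small neutral amino acids, rose by 0.48 from 546 ± 12.5 CPM (adjusted p = 1.8e-36). Of the users of serine and glycine 7 of 10 were tested, 3 rose and 2 fell. Srr, which makes D-serine, rose by 1.33 and Gcat, whose reversible reaction links glycine and acetyl-CoA, fell by 1.04, both at levels under 10 CPM. Srr shares 29.96% of its exons with genes on the other strand. Gcat shares 47.5% with another entry of the same symbol on its own strand, so its values may not cover the whole gene. Sptlc1, which uses serine for sphingolipids, rose by 0.28 (adjusted p = 4.09e-09). In the methionine cycle all 5 genes were tested, 2 rose and 2 fell: Mat2a, which makes S-adenosylmethionine, fell by 0.93 from 298 ± 12.8 CPM (adjusted p = 4.62e-52), Ahcy fell by 0.36 and Mtrr rose by 0.33. Mat2a shares 11.3% of its exons with a gene on the other strand.

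Regulators known for these enzymes were all tested (7 of 7), and 5 rose and 1 fell for the mean of the guides. The one that fell was Myc (log2 -0.77, edgeR adjusted p = 6.02e-17), and the uncalled one was Nfe2l2, which binds the antioxidant response element. Nfe2l2 fell by 0.19 with sgRNA 11 (adjusted p = 1.41e-08) and rose by 0.14 with sgRNA 15 (adjusted p = 1.57e-05). Atf4 stood at 449.8, 454 and 456 CPM in safe libraries, 729, 691 and 732 with sgRNA 11 and 825, 826 and 835 with sgRNA 15 (log2 0.77, edgeR adjusted p = 2.21e-50). Its 3 groups did not overlap, and it was higher with sgRNA 15 than with sgRNA 11 by 0.21 (SE 0.02, adjusted p = 2.11e-12). Atf5 rose from 64.4 ± 0.68 to 336 ± 8.27 and 341 ± 7.38 CPM (log2 2.39, adjusted p = 4.08e-78). Cebpg, a C/EBP partner of ATF4, rose from 43.8 ± 0.76 to 87.7 ± 1.45 and 93.3 ± 2.91 CPM (log2 1.05, adjusted p = 1.19e-41). S phase genes moved with the cytosolic arm: 14 of 14 fell for the mean of the guides, 13 with sgRNA 11 and 14 with sgRNA 15. Of all tested genes 33.3%, 32.4% and 30.7% were called lower in these comparisons. For the mean of the guides the median of the S phase list was -0.45, against 0.01 over all tested genes. Mcm3, part of the replicative helicase, stood at 646 ± 10.4, 445 ± 5.86 and 449 ± 13.1 CPM. The list also holds Rrm1 and Rrm2, subunits of ribonucleotide reductase, which fell by 0.54 and 0.57 on the log2 scale. Whether the S phase list has a part in the fall of Shmt1 and Mthfd1 was not tested.

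**Figure D4:**
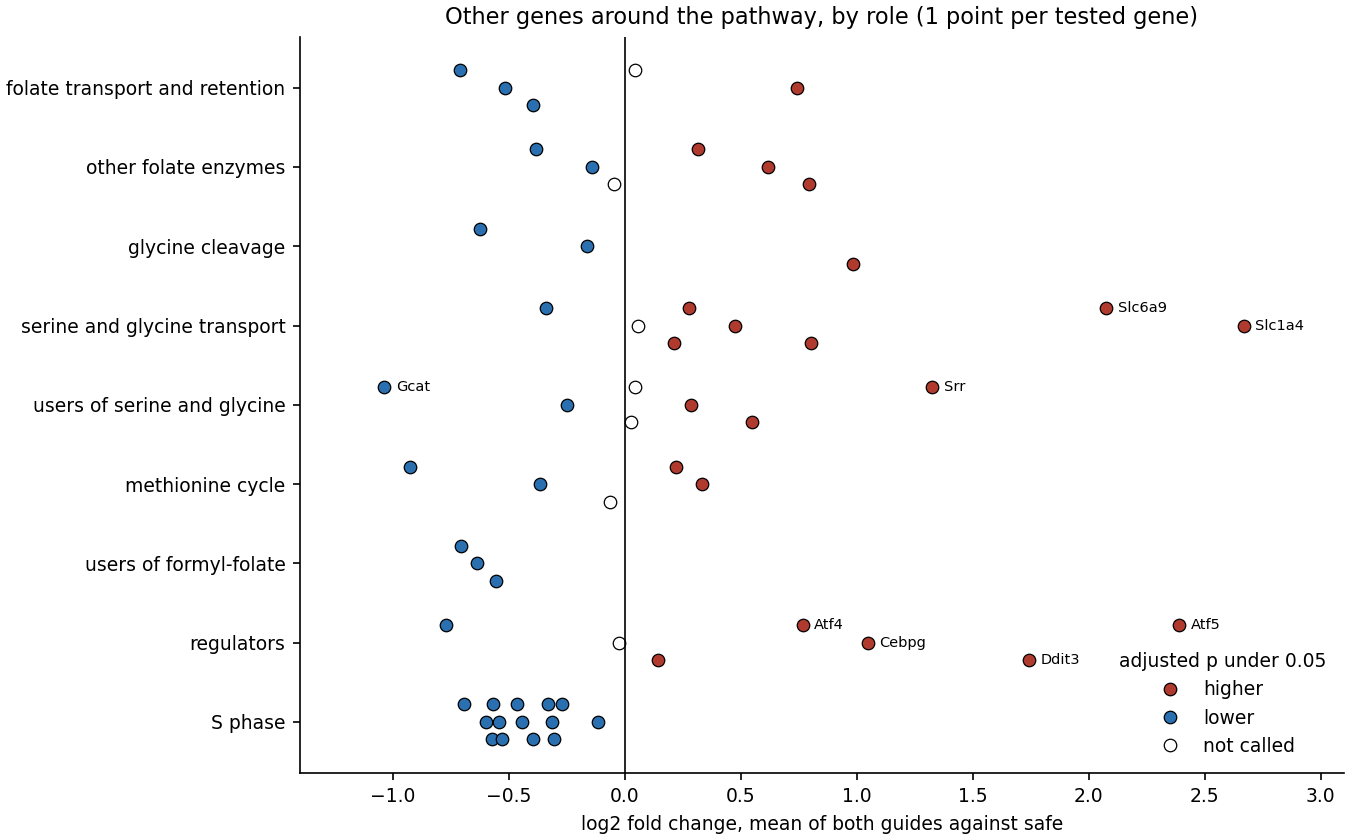
Log2 fold change for the mean of both guides against safe (horizontal axis) of the tested genes around the pathway, 1 point per gene, in rows by role. Red points were higher and blue points lower at an edgeR adjusted p under 0.05, and open points were not called; all 3 users of formyl-folate and all 14 S phase genes lie left of 0.

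Genes whose log2 CPM over the 9 libraries followed a member most closely were looked up among 9290 genes with a mean of at least 5 CPM. For Mthfd2 they were Cd53 (Pearson r = 0.999; 236, 488 and 604 CPM in safe, sgRNA 11 and sgRNA 15), Esyt1 (0.999; 74.3, 155 and 186 CPM) and Rora (0.998; 4.87, 12.1 and 15.5 CPM). For Shmt1 they were Ppp1r7 (0.999; 86.3, 67.4 and 70.9 CPM), Tmpo (0.998; 351, 311 and 317 CPM) and Acad9 (0.997; 51.0, 36.5 and 38.7 CPM). With 3 groups such likeness is common: 1348 genes had r above 0.9 with Mthfd2 and 1903 with Shmt1. Phgdh was too low for this measure.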

How the data were processed

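Polyadenylated RNA of 9 libraries was grouped by the guide in the labels, with 3 libraries per group. The deposited values are whole read counts per gene; STAR, HTSeq and mm10 are what the submitters' processing notes name, and versions, annotation and strand setting are not stated there or in the labels. The 5 HTSeq tally rows stayed out of library sizes and tests, so 79.3 to 80.7% of the tallied reads were used. Reads ambiguous between genes (6.32 to 6.56%) or aligned to more than 1 place (6.20 to 6.69%) are lost to overlapping genes and close copies. Symbols, positions and exon lengths came from GENCODE M21 (55227 of 55487 genes had a symbol), and a named gene sharing at least 10% of its exons with another is called uncertain or given with that share.

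Counts were fitted with edgeR 4.0.16 in R 4.3.3 (filterByExpr with minimum count 10, TMM, robust quasi-likelihood F tests, 2-sided) over all 9 libraries, with 6 residual degrees of freedom and 4 contrasts. Benjamini-Hochberg adjustment ran over all 13453 tested genes of a contrast, with a threshold of 0.05. Whether replicates are separate cultures is not in the labels, so the spread behind the p-values is that of these libraries and may be technical. Standard errors were derived from the F statistics. On simulated counts (sgRNA 11 against safe) over 13016 genes the test recovered 76% of genes changed 1.2-fold and 100% of those changed 1.5-fold, 2-fold or 0.5-fold (50 each), and called 10 of 12816 unchanged genes. The changed genes were drawn from those with a safe mean of at least 5 CPM, and the simulated spread depended on level alone. Far fewer genes changed there than the 65.8% called in the data. These rates may thus not carry over to the data or to low genes.

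Members and gene lists were chosen with earlier results of these data known. Named genes were Slc12a9, the members, Atf4 and up to 3 tested genes of each list (lowest p, both guides averaged). The 3 genes most like Mthfd2 and the 3 most like Shmt1 were named as well, and Phgdh was too low for this. The printed promoters were added once values were known. So were D10Wsu102e and Cct6a (overlapping genes), Gldc, Myc, Nfe2l2, Mthfd2l, Lyz2, Cd68 and Csf1r. A pair of results that this rule names is not reported here. The alternatives comprised DESeq2 1.42.0, limma-voom (limma 3.58.1), relative log expression factors, library size only, no filter, a mean of at least 5 CPM, a GC and length correction, the replicate number as a block, only the groups compared, a minimum absolute log2 of 0.5, and leaving out each single library. Promoter sequences are those of RefSeq on GRCm38.p6.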

Additional observations from a re-analysis of the deposited data

Results flagged for a closer look

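Libraries with sgRNA 15 and with sgRNA 11 differed by their direct test for 2 of the 7 tested enzymes. A difference between the guides cannot be told apart here from one between the lines or cultures that carry them. Mthfd2 was higher with sgRNA 15 than with sgRNA 11 by 0.22 on the log2 scale (edgeR adjusted p = 2.25e-12), and its library ranges did not overlap. Shmt1 was higher with sgRNA 15 by 0.15 (edgeR adjusted p = 0.045), which means that it fell less with that guide, and this call was lost in 13 of 19 alternatives. Over all tested genes 33.5% differed between the guides.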

How the results depend on the processing

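Against safe, Psat1, Shmt1, Mthfd1, Shmt2 and Mthfd2 kept their direction and call under every alternative run, and Mthfd1l did so except with a minimum absolute log2 of 0.5. The number of members called between the guides was 1 rather than 2 with DESeq2, limma-voom, no filter, a mean of at least 5 CPM, the GC and length correction or only the groups compared, 0 with a minimum absolute log2 of 0.5, and 1 to 2 with a library left out; Shmt1 was the gene lost, and with that minimum Mthfd2 too. With that minimum 17 of the other pathway genes were called, against 31, and over all genes 3707, 3211, 3458 and 707 were called with sgRNA 11, sgRNA 15, the mean of guides and between guides, against 8849, 8459, 9147 and 4502. The safe ratio of the arms was 4.73 per kilobase, and for single pairs 10.1 (Shmt2 to Shmt1), 1.25 (Mthfd2 to Mthfd1) and 0.638 (Mthfd1l to Mthfd1). Its log2 change was 1.67 and 0.90 with sgRNA 11 for the Shmt2 and Mthfd1l pairs, and 1.49, 1.59 and 0.87 with sgRNA 15 for the Shmt2, Mthfd2 and Mthfd1l pairs.

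Psph with sgRNA 11 was called at -0.30 with the GC and length correction and at -0.23 with only the groups compared, and for the mean of guides at -0.20 with that correction. Directions turned only for uncalled values near 0. With the GC and length correction the difference between guides was -0.011 for Psat1, 0.040 for Shmt2 and 0.0062 for Mthfd1l, and Slc12a9 with sgRNA 15 was at -0.065; by library size only Psph with sgRNA 15 was at 0.024. With 1 library left out, Psph with sgRNA 15 ranged from -0.13 to 0.029 (above 0 without safe replicate 3, sgRNA 15 replicate 1 or sgRNA 15 replicate 3) and Slc12a9 with sgRNA 15 from -0.016 (without safe replicate 1) to 0.11. Between guides the ranges were -0.013 to 0.023 for Psat1 (below 0 without sgRNA 11 replicate 2 or sgRNA 15 replicate 2), -0.012 (without sgRNA 11 replicate 1) to 0.040 for Mthfd1 and -0.025 to 0.00035 (without sgRNA 11 replicate 2) for Mthfd1l, and 0.086 (without sgRNA 15 replicate 2) to 0.27 for Psph, which was called in none. The causes were not tested.

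Same-numbered libraries correlated at -0.008 to 0.058 in their deviations from group means, and other pairs at -0.072 to 0.041. All of these values were near 0, and 6 of 9 libraries correlated best with their own number. Whether the numbers pair the samples cannot be told from these values. With the replicate number as a block 6, 6, 6 and 2 members were called in the 4 comparisons. The fit of only the groups compared has no counterpart for the mean of guides. Depth limits Phgdh and Aldh1l2, for which fewer than 3 counts were seen in every library.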
